A study of Mus musculus with 45 samples.

Results

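The complement genes described here are C1qa, C1qb, C1qc, C1ra, C1s1, C4b, C2, C3 and Cfb. They were found by their symbols, 9 of the 47729 mouse genes in each of 2 deposited expression tables. Complement is a cascade of secreted proteins that tags cells and debris for uptake and can lyse membranes. In its classical route, C1q binds antibody complexes or altered surfaces and switches on the proteases C1r and C1s, which cut C4 and C2 into an enzyme that cleaves C3. The alternative route cleaves C3 with an enzyme built from C3b and factor B. The liver makes most circulating complement, whereas in tissues C1q comes largely from macrophages and dendritic cells. Fibroblasts, epithelial cells and macrophages can make the other components, several of which are inducible by interferon gamma.

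The RNA came from 45 subcutaneous tumours of CT26, an undifferentiated colon carcinoma line of BALB/c origin. All hosts, vehicle mice included, were HuGEMM mice on the BALB/c background with human PD-1 and human TIGIT knocked in. Their ages and the day of tumour collection were not given in the sources used here. Antibodies or saline were given repeatedly into the peritoneum from day 8 after inoculation. Serplulimab and pembrolizumab are antibodies against PD-1, and HLX53 and tiragolumab are directed against TIGIT, PD-1 and TIGIT both being inhibitory receptors of lymphocytes. Experiment T2106 had 6 groups of 3 tumours: pembrolizumab with tiragolumab, HLX53 alone, serplulimab alone, serplulimab with HLX53 at 5 mg/kg, serplulimab with HLX53 at 10 mg/kg, and vehicle, which was saline. Experiment T2215 had 9 groups of 3: pembrolizumab, serplulimab, HLX53, tiragolumab, the 4 pairs of a PD-1 with a TIGIT antibody, and vehicle. Every antibody dose was 10 mg/kg apart from the 5 mg/kg group. The model is 1 cell line, and each library is a piece of whole tumour with its host cells.

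Values are FPKM, fragments scaled to transcript length and library size, so levels of different genes can be set side by side per length. The depth behind the values is unknown. Libraries listed 12918 to 14448 genes at 0.5 FPKM or more. Tumours of 1 group correlated with each other at 0.83 to 0.99 in T2106 and 0.89 to 0.99 in T2215 over the genes tested. Of 9 carcinoma and epithelium markers, Vil1 lay below 0.5 FPKM in every tumour of both experiments, and Cdx2 did so in T2106. Of the 7 carcinoma and epithelium markers tested in T2106, 6 were higher and 1 lower in the 10 mg/kg pair over vehicle. Of all genes tested, 23.4% were higher and 20.6% lower in that comparison. The marker sums were 91.8 to 165 FPKM in the pair and 102 to 136 FPKM with vehicle. Krt18 was measured at 25.0 to 40.8 FPKM in T2106 tumours given serplulimab with HLX53 at 10 mg/kg and at 9.26 to 12.1 FPKM in vehicle tumours, and Epcam at 8.13 to 10.2 and 0.0775 to 0.794 FPKM, while Krt20 was measured at 5.44 to 53.1 and 91.8 to 120.3 FPKM. Differences were tested with limma on log2(FPKM + 0.5), with Benjamini-Hochberg adjustment over all genes tested and a threshold of 0.05. The p-values rest on the spread between tumours of the same group, pooled over all groups of an experiment. The labels list the 3 tumours of a group as separate samples. In bulk tumour RNA, more cells of a type and more RNA per cell cannot be told apart.

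The genes lie in 4 places of the genome (GRCm38, GENCODE M21). C1qb (chr4:136880129-136886187), C1qc (chr4:136889804-136893065) and C1qa (chr4:136895917-136898803) are neighbours on the minus strand and span 18675 bases. C1ra (chr6:124512405-124523443, plus strand) and C1s1 (chr6:124530345-124542359, minus strand) are neighbours on chromosome 6, beside their close copies C1rb and C1s2. C4b (chr17:34728380-34743882), Cfb (chr17:34856374-34862518) and C2 (chr17:34862604-34898265) lie on the minus strand of chromosome 17, where C2 ends 86 bases upstream of the start of Cfb. C3 (chr17:57203970-57228136, minus strand) lies elsewhere on chromosome 17. All 9 are protein-coding. Reads may be split uncertainly between C4b and C4a, C1ra and C1rb, or C1s1 and C1s2. C1s1 overlaps the antisense gene Gm16567, and C2 overlaps Zbtb12 on the opposite strand. The readthrough gene Gm20547 overlaps Cfb and C2 on their own strand. Whether counting used strand was not stated, so reads of the opposite-strand genes may be mixed. Strand could not separate Gm20547 from Cfb and C2 in any case.

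RefSeq promoter windows on GRCm38.p6 were available for 5 of the 9 genes: C1qb, C1qc, C1ra, C1s1 and C3. Both strands of the 250 bases before each start were searched for GAGGAA, the core of a site of the myeloid factor PU.1, and for TTGCGNAA, a C/EBP site. They were also searched for the core of the interferon-stimulated response element (ISRE). GAGGAA was present in 23.1% of 27025 windows of this length, TTGCGNAA in 0.67% and the ISRE core in 3.04%. C1qb and C1qc each held a GAGGAA. Counted back from the RefSeq start, it lay at bases -30 to -25 in C1qb and, on the opposite strand, at bases -193 to -188 in C1qc. Counted from the start of the GENCODE genes given above, these sites lie at -43 to -38 and -42 to -37. C3 held a TTGCGNAA at bases -45 to -38. The letters of these motifs were not found in the windows of C1ra and C1s1. The stretches that hold a match are printed on the strand of the gene, with the match in capitals, from chr4:136886201-136886300 for C1qb, chr4:136893066-136893164 for C1qc and chr17:57228137-57228236 for C3, all minus strand. A match describes letters in the window and shows no binding.
C1qb: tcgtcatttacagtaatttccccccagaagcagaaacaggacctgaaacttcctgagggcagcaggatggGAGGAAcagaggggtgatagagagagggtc
C1qc: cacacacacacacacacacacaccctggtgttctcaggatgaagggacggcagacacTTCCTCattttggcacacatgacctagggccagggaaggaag
C3: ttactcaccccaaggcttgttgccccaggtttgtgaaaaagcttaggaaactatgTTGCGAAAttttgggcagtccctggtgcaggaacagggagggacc

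In T2106, tumours given serplulimab with HLX53 at 10 mg/kg had higher levels of all 9 complement genes than vehicle tumours. The 3 C1q genes were 2.85- to 2.89-fold higher, C4b 4.21-fold, C2 6.81-fold, C3 7.24-fold and Cfb 3.56-fold. The protease genes C1ra and C1s1 rose by 1.80- and 1.76-fold. All 9 passed the test, beside 44.0% of the 15070 genes tested that did so in either direction, 23.4% higher and 20.6% lower. The median log2 fold change was 1.53 for the complement genes and -0.04 for all genes tested. The groups did not overlap for any of the 9 genes, beside 65.2% of all genes tested without overlap. The plot of T2106 levels shows every tumour.

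**Figure D1:**
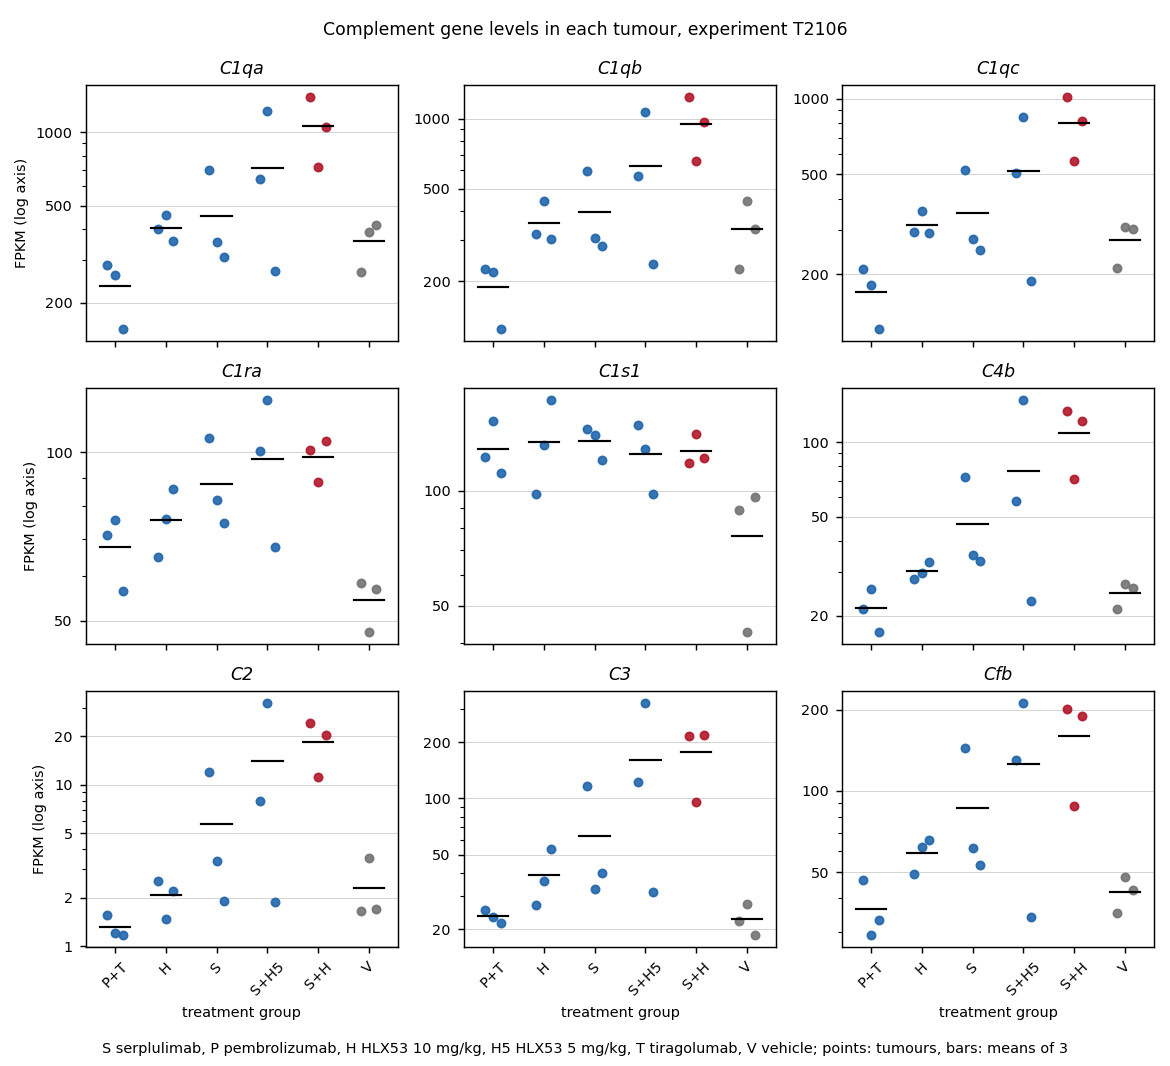
FPKM (log axis) of each complement gene in each of the 18 tumours of T2106, by treatment group; points are tumours and bars are means of 3. The 3 tumours given serplulimab with HLX53 at 10 mg/kg (S+H) lie above all 3 vehicle tumours (V) in every panel, and for C1s1 every antibody group has a higher mean than vehicle.

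C1q is assembled from the products of C1qa, C1qb and C1qc, which form its A, B and C chains. C1qa was measured at 1397, 720.1 and 1055 FPKM with serplulimab and HLX53 at 10 mg/kg, against 268, 390.2 and 418 FPKM with vehicle. Its log2 fold change was 1.53 (SE 0.46, limma adjusted p = 0.0201). The lowest tumour of the pair, replicate 2, was still above the highest vehicle tumour. C1qb was measured at 1240, 655 and 962 FPKM with the pair and at 227, 445 and 334.5 FPKM with vehicle, and its log2 fold change was 1.51 (SE 0.47, limma adjusted p = 0.0225). C1qc had 1017, 563 and 812 FPKM with the pair, against 212, 307 and 303 FPKM with vehicle, a log2 fold change of 1.52 (SE 0.44, limma adjusted p = 0.0184). The order of the tumours in the pair, replicate 1 above 3 above 2, was the same for all chains.

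C1r and C1s are the serine proteases that C1q carries, C1r activating C1s. C1ra was measured at 101, 88.4 and 105 FPKM with serplulimab and HLX53 at 10 mg/kg, against 58.4, 47.6 and 57.0 FPKM with vehicle. The log2 fold change was 0.85 (SE 0.20, limma adjusted p = 0.0115). C1s1 had 118, 140.5 and 121 FPKM with the pair and 89.1, 42.55 and 95.9 FPKM with vehicle, a log2 fold change of 0.82 (SE 0.27, limma adjusted p = 0.0295). Vehicle replicate 2 was the lowest tumour of the experiment for C1s1. Without it the log2 fold change was 0.45 (limma adjusted p = 0.123). With only the pair and vehicle in the fit, the adjusted p of C1s1 was 0.0627, so the call of this gene rests on that tumour and on the groups fitted.

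C4b encodes C4, which C1s cuts. Its levels were 133, 71.2 and 121.5 FPKM in the 10 mg/kg pair and 21.2, 26.9 and 26.0 FPKM with vehicle, a log2 fold change of 2.07 (SE 0.49, limma adjusted p = 0.0114). C2, the protease of the classical C3 convertase, was the least abundant of the 9 per length. It had 24.0, 11.25 and 20.3 FPKM with the pair, against 1.66, 3.51 and 1.70 FPKM with vehicle, and a log2 fold change of 2.77 (SE 0.74, limma adjusted p = 0.0146). C3, on which all routes converge, had 215, 95.3 and 219 FPKM with the pair and 22.1, 27.2 and 18.5 FPKM with vehicle. Its log2 fold change of 2.86 (SE 0.65, limma adjusted p = 0.0110) was the highest of the 9. Cfb encodes factor B, the protease of the alternative convertase. It had 201, 88.3 and 189.8 FPKM with the pair, against 35.3, 48.1 and 42.9 FPKM with vehicle, a log2 fold change of 1.83 (SE 0.54, limma adjusted p = 0.0195). For these 4 genes, replicate 2 of the pair was again the lowest of its group.

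The count of 9 depended on single tumours. Without replicate 1 of the pair none of the 9 passed, beside 3.35% of all genes, and without replicate 3 none passed, beside 6.40%. Without vehicle replicate 1, 5 of the 9 passed, beside 21.2%. All 9 log2 fold changes stayed above 0 in each of these fits.

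Lists of tissue and cell markers were counted in the same comparison, where 23.4% of all genes were higher. The summed level of 16 macrophage and monocyte markers was 9683 to 14800 FPKM in the 10 mg/kg pair and 1667 to 3026 FPKM with vehicle, and 13 of the 16 passed as higher. Of 10 fibroblast markers 9 were higher, with sums of 3350 to 5148 FPKM against 452.9 to 720.5 FPKM. All 8 adipocyte markers were higher, with sums of 1014 to 1204 FPKM against 50.2 to 249.6 FPKM. Of 8 hepatocyte markers 4 were tested and 3 were higher, with sums of 159.6 to 200.5 FPKM against 7.68 to 41.1 FPKM, while the hepatocyte gene Ttr was below 0.5 FPKM in every tumour. Alb, the albumin gene, averaged 0.497 FPKM in the pair and 0.0217 FPKM in vehicle tumours. Of 8 keratinocyte markers 5 were tested and 4 were higher, with sums of 10.53 to 11.6 FPKM against 1.31 to 1.99 FPKM. Neutrophil markers (7 of 8 higher, sums of 490.9 to 1606 FPKM against 34.7 to 79.9 FPKM) and acute phase genes (9 of 10 tested higher, sums of 1083 to 2030 FPKM against 104.5 to 138.2 FPKM) moved the same way. Of 10 T cell markers 2 were higher, near the share of all genes, with sums of 86.2 to 230.6 FPKM against 43.5 to 61.2 FPKM. Of 16 interferon gamma response genes 6 were higher, with sums of 1331 to 1611 FPKM against 694.5 to 1239 FPKM.

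With the macrophage and monocyte score (the mean log2 level of the list) as a covariate, 0 of the 9 complement genes passed, beside 0.0133% of all genes. Their log2 differences then ran between -0.074 for Cfb and 0.61 for C3. With the adipocyte score as a covariate 0 passed, beside 0.0265% of all genes, and the differences ran between -0.13 for C1qb and 0.93 for C1s1. The macrophage score was 6.83 to 7.56 in the pair and 5.015 to 5.39 in vehicle tumours, and the adipocyte score 5.07 to 5.31 and 0.51 to 2.996. Neither score overlapped between the groups, so score and treatment cannot be told apart in these fits. The part of fibroblasts, hepatocytes, keratinocytes, neutrophils and T cells in the complement differences was not tested.

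The other T2106 groups gave an order for each gene. Mean C1qa was 233 ± 68.7 FPKM with pembrolizumab and tiragolumab, 406 ± 49.8 with HLX53, 453 ± 212 with serplulimab, 711 ± 479 with the 5 mg/kg pair, and 1057 ± 338.5 with the 10 mg/kg pair, against 359 ± 80.1 with vehicle (SD, n = 3 each). Neighbours in that order overlapped in every case. C3 averaged 23.4 ± 1.97, 38.8 ± 13.6, 63.0 ± 46.2, 159.8 ± 150.2 and 176 ± 70.1 FPKM in the same antibody groups, and 22.6 ± 4.36 FPKM with vehicle. C1qb, C1qc, C4b and Cfb followed the same order of means as C1qa, with the 10 mg/kg pair first, the 5 mg/kg pair second and pembrolizumab with tiragolumab last. C1s1 did not: it averaged 129 ± 21.5 FPKM with pembrolizumab and tiragolumab, 134 ± 37.5 with HLX53, 135 ± 12.9 with serplulimab, 125 ± 25.2 with the 5 mg/kg pair and 127 ± 12.2 with the 10 mg/kg pair, against 75.9 ± 29.1 with vehicle. The 5 antibody groups thus overlapped each other for C1s1. A limma F test over all groups was passed by C1qb, C1qc, C4b, C2 and C3, with adjusted p between 0.0427 and 0.0491, beside 10.8% of all genes. C1qa (adjusted p = 0.0520), C1ra (0.0515), Cfb (0.0706) and C1s1 (0.105) missed the threshold of that test. The count of 5 was 8 without replicate 2 or without replicate 3 of the 5 mg/kg pair, 7 without serplulimab replicate 1, 2 without replicate 1 of the 5 mg/kg pair or replicate 2 of the 10 mg/kg pair, and 0 without any 1 of the other tumours. The share of all genes in these fits was 46.7% for the fits with 8, 20.7% for the fit with 7, 10.3% to 12.8% for those with 2 and 0.0464% to 5.44% for those with 0.

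Against HLX53 alone, tumours with serplulimab and HLX53 at 10 mg/kg were higher in 6 of the 9 genes, beside 26.8% of all genes that passed, 18.1% higher and 8.69% lower. These were the 3 C1q genes, C4b, C2 and C3, with log2 fold changes of 1.31 to 2.84 and limma adjusted p between 0.0224 and 0.0451. For C2 the HLX53 tumours had 2.53, 1.48 and 2.20 FPKM. The pair and HLX53 alone did not overlap for 8 of the 9 genes, C2 among them, beside 59.2% of all genes. Cfb missed the threshold (log2 fold change 1.35, limma adjusted p = 0.0679), as did C1ra (0.38, adjusted p = 0.141) and C1s1 (-0.05, 95% interval -0.63 to 0.54). None of the 9 passed when any single HLX53 tumour, or replicate 1 or 3 of the pair, was left out, beside 1.46% to 6.25% of all genes. In these comparisons macrophage marker sums were 9683 to 14800 FPKM in the pair and 2948 to 3459 FPKM with HLX53 alone, and adipocyte sums were 1014 to 1204 and 62.4 to 78.0 FPKM. With either score as a covariate 0 of the 9 passed, beside 0.0199% of all genes with the macrophage score and 0 genes with the adipocyte score.

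Against serplulimab alone none of the 9 passed, beside 1.59% of all genes (1.41% higher and 0.186% lower). Of the 9, 6 had an unadjusted p under 0.05 (the C1q genes, C4b, C2 and C3), beside 35.9% of all genes at that threshold, with log2 differences of 1.23 to 1.90 and limma adjusted p of 0.0858 to 0.105. Serplulimab replicate 1 stood apart from the other tumours of its group: it had 697 FPKM of C1qa, 11.96 of C2 and 116 of C3, against 307 to 356, 1.90 to 3.40 and 32.9 to 39.8 in the other 2. Without that tumour 6 of the 9 passed, beside 23.1% of all genes. It also had the highest fibroblast and macrophage marker sums of its group, 3410 and 6169 FPKM.

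The 2 doses of HLX53 beside serplulimab did not differ in any of the 9 genes by the test, beside 0.139% of all genes (0.133% higher and 0.00664% lower), and none of the 9 had an unadjusted p under 0.05, beside 1653 of 15070 genes tested. The 95% intervals of the log2 difference, 10 over 5 mg/kg, were wide, -0.20 to 1.75 for C1qa and -0.79 to 2.00 for C3. The 5 mg/kg tumours were spread. Replicate 2 had 325 FPKM of C3, 148 of C4b and 32.3 of C2, the highest values of the experiment, and replicate 1 had 123, 57.8 and 7.92. Replicate 3 had 31.7, 22.9 and 1.87 FPKM, near the vehicle tumours. Their adipocyte marker sums were 1322, 197.8 and 44.4 FPKM in the order replicate 2, 1, 3. Without replicate 2 the 10 mg/kg pair was higher than the 5 mg/kg pair in 5 of the 9 genes, beside 38.9% of all genes that passed.

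Serplulimab with HLX53 at 5 mg/kg gave 0 of 9 passing against vehicle, beside 1.02% of all genes (0.352% higher and 0.67% lower), with log2 differences of 0.67 to 2.25, and 6 had an unadjusted p under 0.05, beside 28.7% of all genes. C1ra came closest (0.80, SE 0.20, limma adjusted p = 0.0563), followed by C3 (2.25, SE 0.65, limma adjusted p = 0.0757). All 9 passed without replicate 3, beside 40.4% of all genes. None of the 9 passed with serplulimab alone, HLX53 alone, or pembrolizumab with tiragolumab against vehicle, where 0%, 0.00664% and 0% of all genes passed. Unadjusted p-values under 0.05 were found for C1ra and C1s1 with serplulimab and with HLX53, and for C1s1 with pembrolizumab and tiragolumab, beside 8.49%, 3.86% and 5.14% of all genes. The log2 differences of C1s1 were 0.91, 0.87 and 0.83 in these groups. All tumours of each group lay above all vehicle tumours for C1s1, beside 22.9%, 15.6% and 23.8% of all genes without overlap. The C1q genes had log2 differences of 0.21 to 0.29 with serplulimab, 0.11 to 0.21 with HLX53 and -0.81 to -0.64 with pembrolizumab and tiragolumab. All these comparisons share the same 3 vehicle tumours.

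In T2215 none of the 9 genes passed in any of 13 comparisons or in the F test, where the smallest adjusted p of the 9 was 0.674 and 0.0134% of all genes passed. In the comparison of HLX53 groups with tiragolumab groups, 6 of the 9 had an unadjusted p under 0.05, beside 26.6% of all genes. In the other 12 comparisons none of the 9 did. The shares of all genes there ran between 0.939% (tiragolumab against vehicle) and 18.3% (serplulimab with HLX53 against vehicle). The F test also gave none of the 9 at that threshold. For 10 of the 13 comparisons 0% of all genes passed. The others were pembrolizumab with HLX53 (0.00671%) and pembrolizumab with tiragolumab (0.0134%) against vehicle, and any TIGIT antibody against none (0.0134%), beside the F test.

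**Figure D2:**
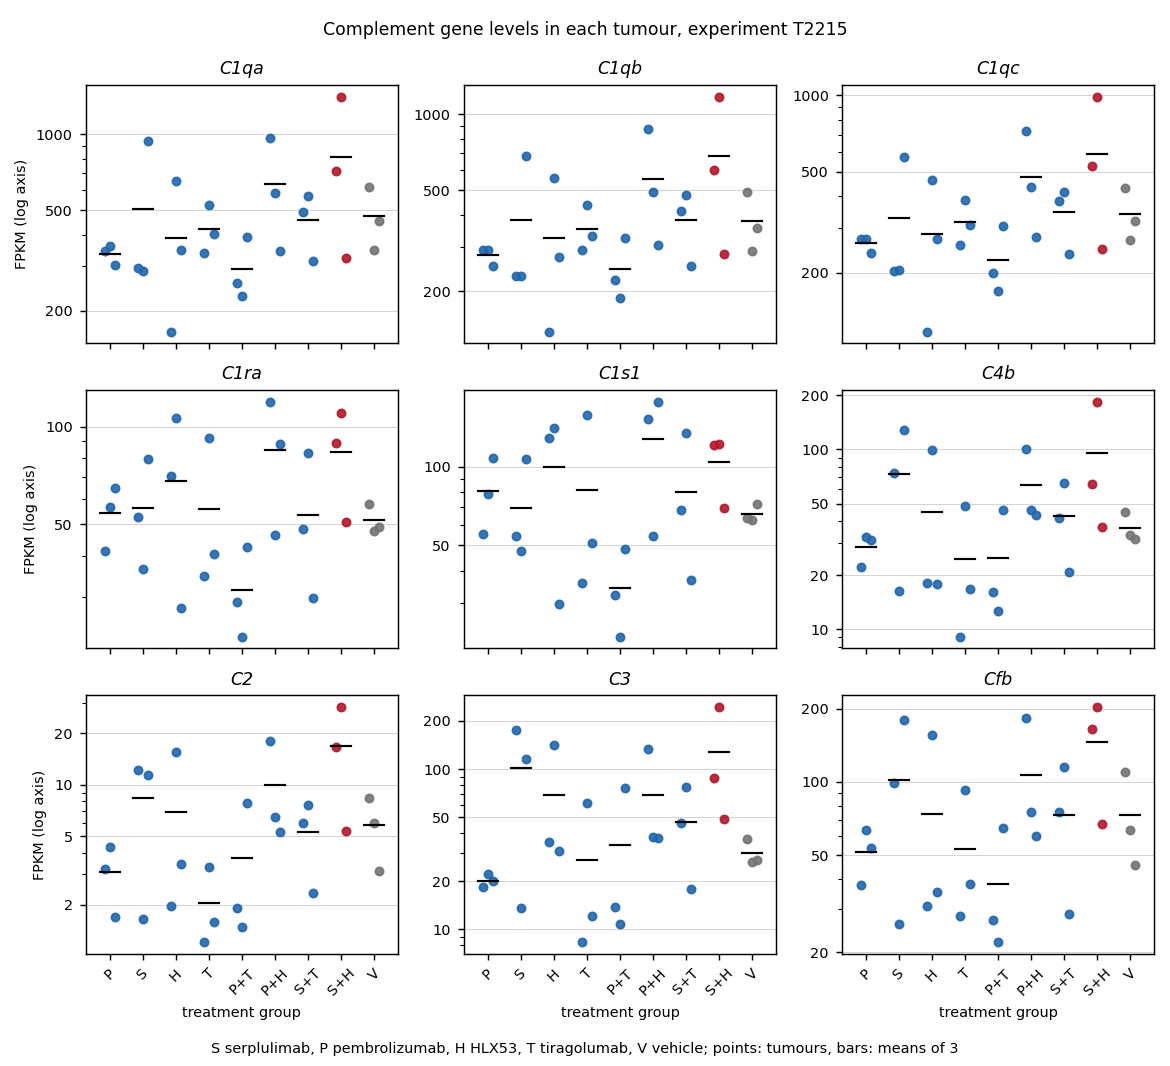
FPKM (log axis) of each complement gene in each of the 27 tumours of T2215, by treatment group; points are tumours and bars are means of 3. Serplulimab with HLX53 (S+H) has the highest mean for all genes except C1ra and C1s1, with tumours ranging between 323 and 1407 FPKM for C1qa, and vehicle (V) lies at 347 to 620 FPKM.

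Serplulimab with HLX53 had the highest mean of the 9 groups for 7 genes, and pembrolizumab with HLX53 for C1ra and C1s1. C1qa was measured at 715, 1407 and 323 FPKM with serplulimab and HLX53, against 619.5, 347 and 451 FPKM with vehicle, so the groups overlapped. The log2 difference was 0.58 (95% interval -0.52 to 1.68, limma adjusted p = 0.499). C3 was measured at 88.6, 243.9 and 49.2 FPKM with the pair and at 36.9, 26.2 and 26.9 FPKM with vehicle. It was the only gene of the 9 without overlap in this comparison, beside 24.0% of all genes, with a log2 difference of 1.77 (95% interval -0.18 to 3.72, limma adjusted p = 0.305). C2 had 16.7, 28.3 and 5.37 FPKM with the pair, against 8.36, 5.95 and 3.15 FPKM with vehicle, and C4b had 64.5, 183 and 37.0 FPKM, against 44.9, 33.2 and 31.8 FPKM. Replicate 2 of the pair was the highest tumour of the experiment for all genes but C1ra and C1s1. All 9 log2 differences lay above 0, between 0.58 and 1.77, beside a median of -0.04 over all genes. Macrophage marker sums were 3023 to 13740 FPKM in these tumours and 2425 to 3119 FPKM with vehicle, adipocyte sums 89.3 to 2290 and 97.8 to 417 FPKM, and hepatocyte sums 22.2 to 273 and 29.9 to 38.6 FPKM. Whether T2106 and T2215 differ in the size of these effects was not tested. The tables were deposited and fitted separately.

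**Figure D3:**
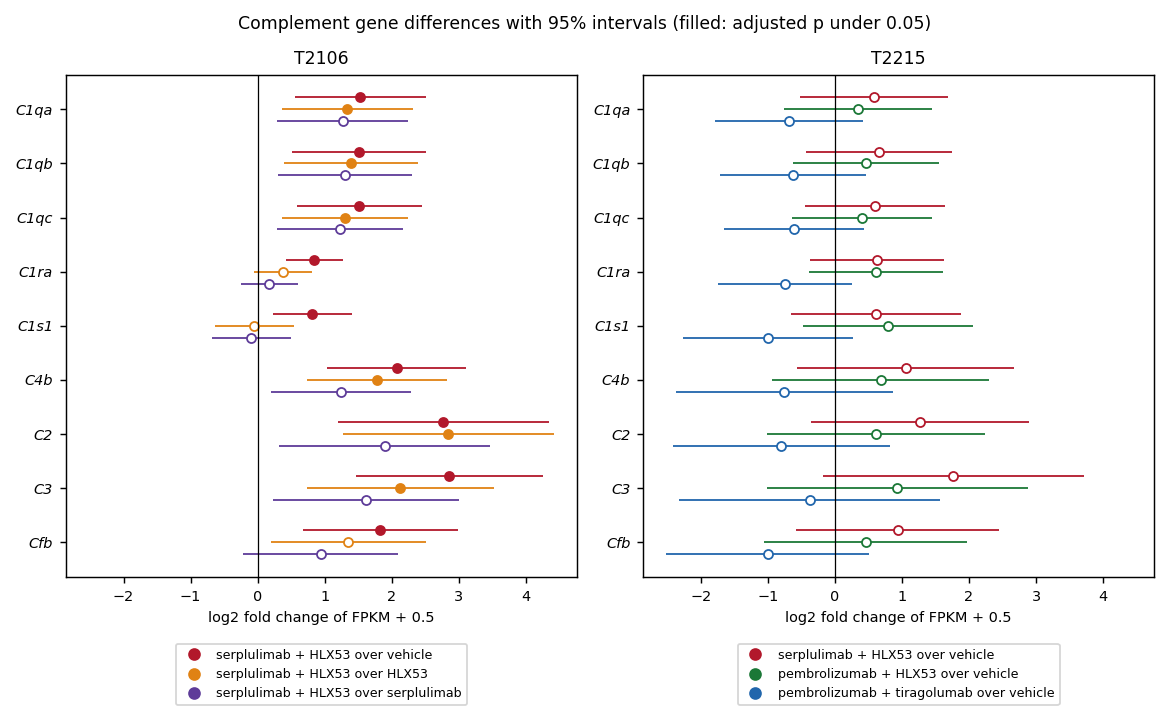
Log2 fold change of FPKM + 0.5 for each complement gene, with 95% intervals from limma, in 3 comparisons of T2106 (left) and 3 of T2215 (right); filled points have an adjusted p under 0.05. In T2106 the values of serplulimab with HLX53 over vehicle run between 0.82 (C1s1) and 2.86 (C3), and in T2215 every interval includes 0.

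The groups given HLX53 were set against those given tiragolumab with equal weight to each PD-1 background. All 9 log2 differences lay above 0, between 0.42 and 1.38, beside a median of -0.03 over all genes. The 6 genes with an unadjusted p under 0.05 were C1ra (0.76, SE 0.28), C1s1 (0.87, SE 0.35), C4b (1.04, SE 0.45), C2 (1.33, SE 0.45), C3 (1.38, SE 0.54) and Cfb (0.93, SE 0.42). Their limma adjusted p-values were 0.154 to 0.175. In the pairs with pembrolizumab, C2 was measured at 17.95, 6.51 and 5.29 FPKM with HLX53 and at 1.92, 1.47 and 7.81 FPKM with tiragolumab, which overlapped. The median log2 difference was 1.10 over the interferon gamma response genes (0 of 16 passed) and 1.25 over the T cell markers (0 of 10 passed), and their part was not tested. The 95% intervals of the C1q genes included 0, for instance -0.19 to 1.08 for C1qa. Both antibodies were given at 10 mg/kg, and the upper bounds of the intervals were 2.27 for C2 and 2.51 for C3.

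Pembrolizumab with tiragolumab had the lowest mean of the 9 groups for the C1q genes, C1ra, C1s1 and Cfb. C1s1 was measured at 32.2, 22.3 and 48.5 FPKM with this pair, against 63.5, 62.3 and 71.8 FPKM with vehicle. C1ra was measured at 28.9, 22.6 and 42.5 FPKM with the pair and at 57.8, 47.6 and 49.0 FPKM with vehicle. Neither gene overlapped, beside 16.6% of all genes, and the log2 differences were -0.996 (95% interval -2.26 to 0.27) and -0.75 (95% interval -1.75 to 0.25), both with a limma adjusted p of 0.9999. The summed interferon gamma response was 201 to 716 FPKM in these tumours and 994 to 1727 FPKM in vehicle tumours, and the summed T cell markers were 8.70 to 24.8 and 26.4 to 97.5 FPKM. Their part in the C1r and C1s values was not tested.

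Averaged over the other class, a PD-1 antibody against none gave log2 differences of 0.01 to 0.56, a TIGIT antibody against none gave -0.07 to 0.30, and serplulimab against pembrolizumab gave 0.22 to 1.11. C3 was highest in the last of these (1.11, 95% interval -0.02 to 2.23, limma adjusted p = 0.504). The interaction of PD-1 and TIGIT antibodies ran between -0.15 for C1s1 and 1.25 for C2, with every interval including 0. Single agents against vehicle gave log2 differences of -0.80 to 0.24 for pembrolizumab, -0.21 to 1.13 for serplulimab, -0.46 to 0.84 for HLX53 and -1.31 to 0.01 for tiragolumab. Pembrolizumab with HLX53 gave 0.34 to 0.93 and serplulimab with tiragolumab -0.16 to 0.43. Tumours within a group often differed more than the groups did. With HLX53 alone, C4b was measured at 18.1, 99.1 and 17.9 FPKM, and with serplulimab alone at 73.9, 16.4 and 128 FPKM, against 44.9, 33.2 and 31.8 FPKM with vehicle. Over the 27 tumours the range was 8.52-fold for C1qa, 5.26-fold for C1ra, 20.2-fold for C4b, 23.3-fold for C2 and 29.2-fold for C3.

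Across tumours the 9 genes fell into sets that varied together. Correlations of log2(FPKM + 0.5) are given as descriptions over 18 tumours of T2106 and 27 of T2215, which share libraries and treatment groups. C1qa, C1qb and C1qc correlated with each other at 0.99 or above in both experiments. C4b, C2, C3 and Cfb correlated with each other at 0.95 to 0.97 in T2106 and 0.89 to 0.96 in T2215. Between these sets the values were 0.89 to 0.96 in T2106 and 0.65 to 0.86 in T2215. C1s1 was the exception: it correlated with the C1q genes at only 0.10 to 0.18 in T2106 and 0.49 to 0.52 in T2215. C1s1 correlated with C1ra at 0.69 in T2106 and 0.96 in T2215, and C1ra in T2106 correlated at 0.86 to 0.89 with C4b, C3 and Cfb.

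**Figure D4:**
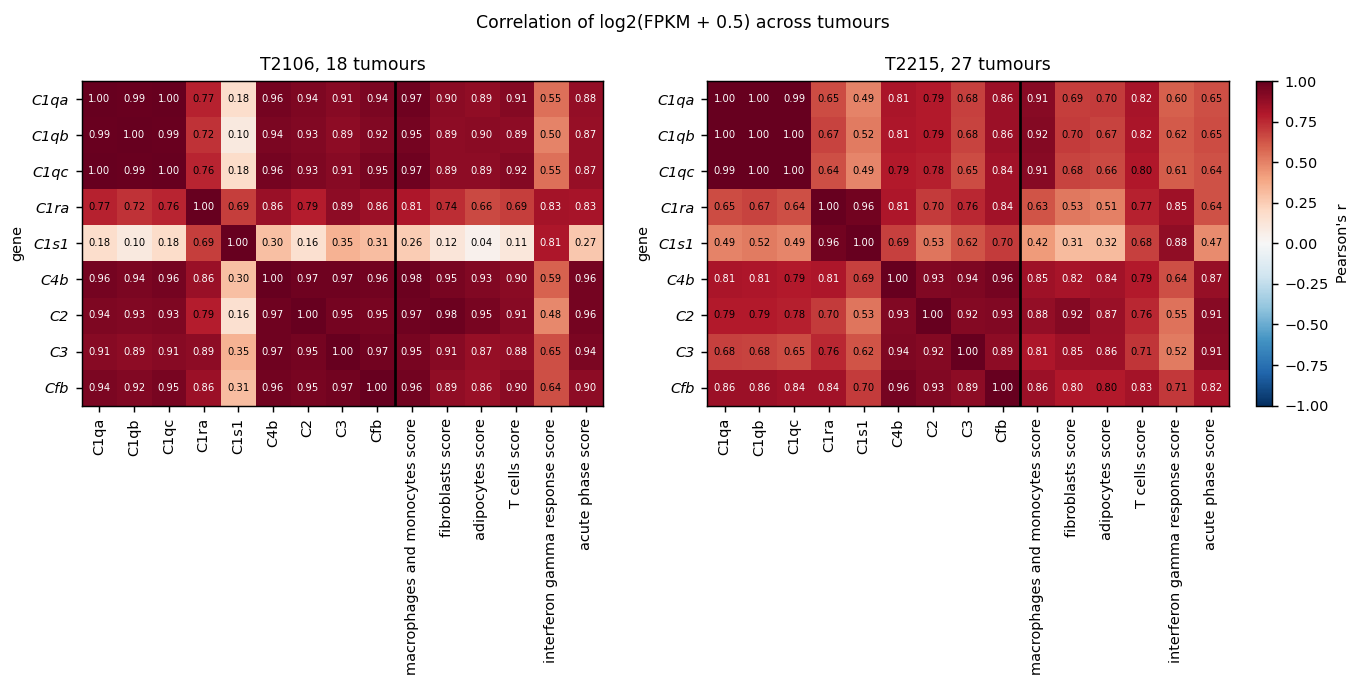
Pearson's r of log2(FPKM + 0.5) between complement genes, and between each gene and the scores of 6 marker lists (right of the line), over the 18 tumours of T2106 and the 27 of T2215. C1s1 in T2106 has its highest list value, 0.81, with the interferon gamma response and 0.04 with adipocytes. The C1q genes reach 0.95 to 0.97 with macrophages and monocytes in T2106, and C4b, C2, C3 and Cfb reach 0.95 to 0.98.

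The mean of the C1q genes correlated with the macrophage and monocyte score at r = 0.97 (Spearman's rho 0.96) in T2106 and r = 0.91 (rho 0.85) in T2215. Without the 2 tumours farthest from the median score, r was 0.95 and 0.85, and for deviations from group means it was 0.95 and 0.92. The mean of C1ra and C1s1 correlated with the interferon gamma response score at r = 0.89 (rho 0.86) in T2106 and r = 0.88 (rho 0.91) in T2215. Without the 2 farthest tumours r was 0.80 and 0.90, and for deviations from group means 0.84 and 0.85. The genes of this mean differed in T2106: C1ra alone correlated with the interferon gamma score at 0.83, the neutrophil score at 0.88, the macrophage score at 0.81 and the fibroblast score at 0.74, and C1s1 at 0.81, 0.41, 0.26 and 0.12. In T2215 C1ra had 0.85, 0.64, 0.63 and 0.53 with the same scores, and C1s1 had 0.88, 0.53, 0.42 and 0.31. C2 correlated with the fibroblast score at 0.98 (rho 0.91) in T2106 and 0.92 (rho 0.91) in T2215. Without the 2 farthest tumours r was 0.97 and 0.91. With the adipocyte score C2 had 0.95 and 0.87. For deviations from group means C2 had 0.96 and 0.91 with the fibroblast score, and 0.905 and 0.92 with the adipocyte score. The high values of C2 were thus not particular to the fibroblast list. C4b, C2 and C3 correlated with the acute phase score at 0.94 to 0.96 in T2106 and 0.87 to 0.91 in T2215. In T2106 the macrophage score also had 0.98 with C4b, 0.97 with C2, 0.96 with Cfb and 0.95 with C3. The macrophage list thus did not set C1q apart from these genes in T2106. The C1q mean had 0.90 with the fibroblast score there and 0.91 with the T cell score. In T2215 the macrophage score had 0.81 to 0.88 with C4b, C2, C3 and Cfb, and the C1q mean had 0.69 with the fibroblast score.

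**Figure D5:**
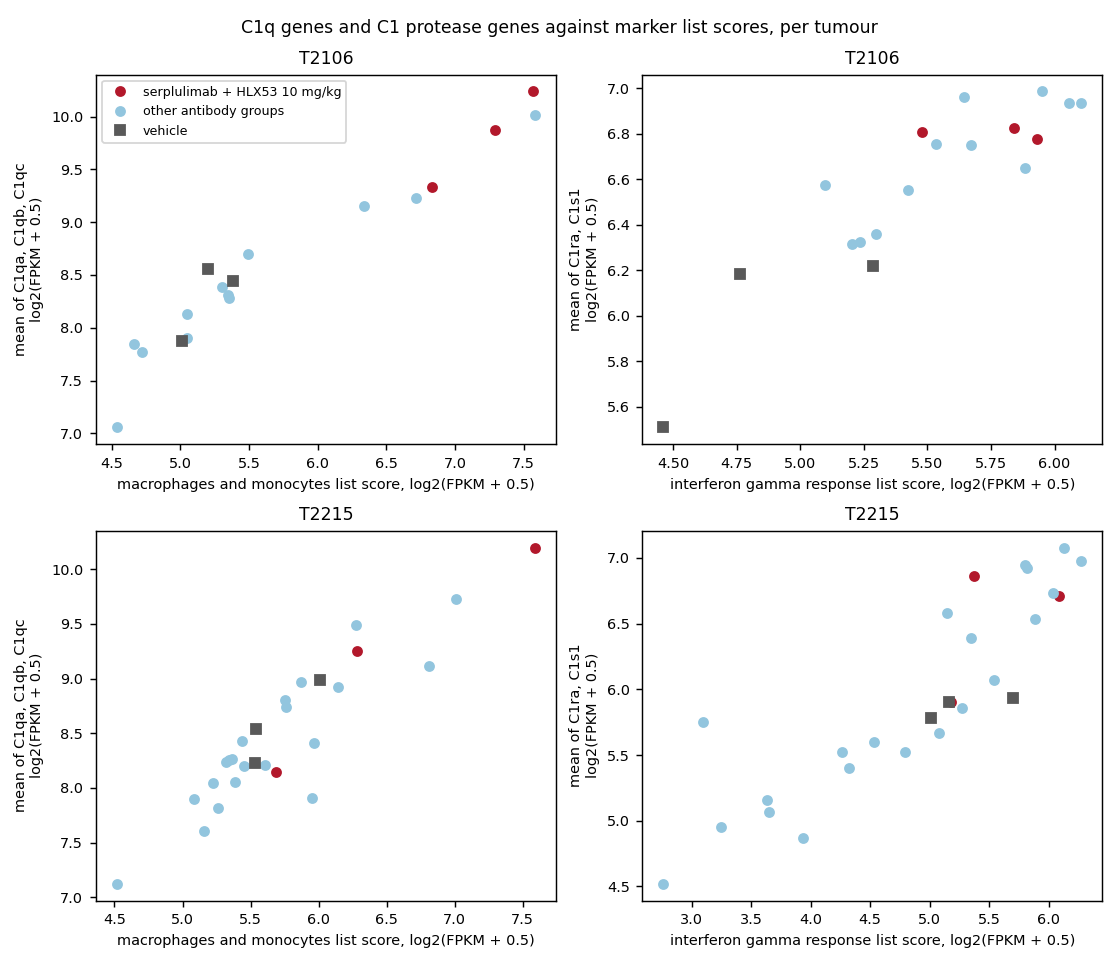
Mean log2(FPKM + 0.5) of the C1q genes against the macrophage and monocyte list score (left) and of C1ra and C1s1 against the interferon gamma response list score (right), a point per tumour, in T2106 (top) and T2215 (bottom). C1q follows the macrophage score at r = 0.97 and 0.91, and the C1 protease genes follow the interferon gamma score at r = 0.89 and 0.88.

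The genes most like each profile were ranked by the lower of the 2 experiments' correlations over 13042 genes tested in both. For C1q they were Pld4, Unc93b1, Ly86, Lyn and Il10ra, at 0.96 to 0.99 in T2106 and 0.95 to 0.97 in T2215. For the mean of C1ra and C1s1 they included Rnf114, Samhd1, Xdh and Nampt, at 0.89 to 0.91 and 0.88 to 0.96. For C4b they were Pla2g16, Mgst1, Serping1, Ifi205 and Gpsm3, at 0.93 to 0.97 in T2106 and 0.93 to 0.96 in T2215. Serping1 encodes the inhibitor of C1r and C1s. For C2 they were Gstt1, Mgst1, Gpm6b, Hsd11b1 and Pla1a, for C3 Mgst1, Thy1, Cd1d1, Fzd1 and Hsd11b1, and for Cfb Pla2g16, Slco3a1, Ctsh, Pycard and Ptpn18. Mgst1 was thus among the first 5 for C4b, C2 and C3, at 0.95 to 0.97 in T2106 and 0.95 to 0.97 in T2215.

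Other complement genes were counted in T2106 for the 10 mg/kg pair over vehicle, beside 23.4% of all genes higher and 20.6% lower. Of 12 genes of the lectin route and other initiators, 5 were tested, 3 rose and 1 fell, while Mbl1, Mbl2, Fcnb, Colec10, Colec11, Crp and Apcs were below 0.5 FPKM in every tumour. Fcna, a ficolin of macrophages, averaged 45.8 ± 3.25 FPKM with the pair and 15.4 ± 3.62 FPKM with vehicle (SD, n = 3 each), a log2 fold change of 1.56 (limma adjusted p = 0.0104). Colec12, a scavenger receptor collectin, rose by 2.50 and Ptx3, a pentraxin that binds C1q, by 3.81 on the log2 scale (limma adjusted p = 0.0120 and 0.0131). Masp1, a protease of the lectin route, fell to 1.95 ± 0.508 FPKM with the pair, against 7.32 ± 0.653 FPKM with vehicle, a log2 fold change of -1.69 (limma adjusted p = 0.0136). Of the 4 close relatives of C1 and C4 genes, C4a (log2 fold change 1.21) and C1rb (0.91) rose.

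Both other genes of the alternative route rose. Cfd, factor D, which cuts factor B and is abundant in adipocytes, averaged 585.5 ± 126 FPKM with the pair and 37.9 ± 59.3 FPKM with vehicle (SD, n = 3 each), a log2 fold change of 5.83 (SE 1.63, limma adjusted p = 0.0168). Cfp, properdin, which stabilises the alternative convertase, averaged 255 ± 59.8 and 61.6 ± 7.46 FPKM, a log2 fold change of 2.02 (limma adjusted p = 0.0115). In the terminal route 3 of 7 genes were tested and 2 rose. Hc, the gene of C5, averaged 2.81 ± 1.15 FPKM with the pair and 0.100 ± 0.0660 FPKM with vehicle, and C6 averaged 18.03 ± 5.44 and 2.10 ± 1.57 FPKM. C7, C8a, C8b and C9 were below 0.5 FPKM in every tumour of T2106. Of 12 regulators 9 were tested and 7 rose, among them Cd55 and Cd59a, which protect cell membranes, and the terminal route inhibitor Vtn, with log2 fold changes of 3.24, 2.43 and 1.87. Of 11 receptors 10 were tested and 6 rose, among them the integrin chains Itgb2 (2.45) and Itgax (1.51), the C5a receptor C5ar1 (1.94) and the C3b receptor Vsig4 (3.20). The median log2 fold change was 1.87 over the regulators and 1.40 over the receptors, beside -0.04 over all genes. With the adipocyte score as a covariate the values of Cfd and C6 turned to -0.77 and -0.30, and with the macrophage score C6 turned to -0.12.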

How the data were processed

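Bulk RNA of 45 tumours was purified with a Qiagen RNeasy kit and sequenced from MGIEasy libraries, per the labels' protocols. Tools named in the submitters' processing notes are STAR, Bowtie, Trimmomatic and FastQC, and builds are mm10, hg19 and GRCh37; which was used for what was not stated, nor was the program that computed expression. The authors deposited log2 FPKM per gene, in a table for each experiment, and the tables were fitted separately. A library summed to 678636 to 911201 FPKM. No counts were used, so no counting interval can be given.

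Each value x was converted to FPKM as a power of 2, and log2(FPKM + 0.5) was tested, a scale that understates the change of low genes. Tests covered 15070 genes in T2106 and 14914 in T2215 that reached 0.5 FPKM in at least 3 tumours, using limma 3.58.1 in R 4.3.3 (eBayes with trend, all groups of a table in the fit). All 9 complement genes passed the filter. The fit was tested on simulated data. Figures used Python with matplotlib. Of 21 comparisons, 8 lay within T2106 and 13 within T2215. The genes, marker lists and tests were chosen with earlier results of these data known. All 9 genes are named, with up to 4 genes of smallest p from each other complement list, the 5 genes most like each profile, and markers where a value turned on them, apart from a few items that are not reported here. Gene coordinates are from GENCODE M21. The labels do not say that a replicate number is shared between groups, so tumours were not treated as paired.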

Additional observations from a re-analysis of the deposited data

Results flagged for a closer look

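For C1ra, pembrolizumab with tiragolumab lay on opposite sides of the vehicle mean in the 2 experiments. Relative to the mean of the vehicle tumours, every treated tumour was higher in T2106 and every treated tumour was lower in T2215. The mean log2 difference was 0.31 in T2106 and -0.75 in T2215, 1.06 apart, although single tumours overlapped with vehicle in T2106. C1s1 also lay on opposite sides, with 0.83 in T2106 and -0.996 in T2215, 1.83 apart, and did not overlap with vehicle in either experiment. C1ra and C1s1 were found by scanning all complement genes in each antibody treatment given in both experiments. The difference between the experiments was not tested, and the tables were deposited and fitted separately. In neither experiment did C1ra or C1s1 pass the limma test for this pair.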

How the results depend on the processing

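Counts of complement genes past the test moved under some settings. For the 10 mg/kg pair over vehicle in T2106 (9 genes), 0 passed with either the macrophage or the adipocyte score in the fit. The shares of all genes were 0.0133% and 0.0265%. Leaving out 1 tumour gave 0 to 9, beside 3.35% to 49.1% of all genes. Against HLX53 (6 genes), 2 passed with no filter on low values. With the macrophage or the adipocyte score 0 passed, beside 0.0199% and 0% of all genes. With 1 tumour left out 0 to 7 passed, beside 1.46% to 39.3% of all genes. For the 5 mg/kg pair against vehicle (0 genes), 1 passed with libraries centred on their medians. With 1 tumour left out 0 to 9 passed, beside 0.0796% to 40.4% of all genes. Against serplulimab and against the 5 mg/kg pair (0 genes each), leaving out 1 tumour gave 0 to 6 and 0 to 5. The shares of all genes in these fits were 0.00664% to 23.1% and 0.00664% to 38.9%. The T2106 F test (5 genes) gave 3 with a filter of 1 FPKM. It gave 0 with no filter, with either covariate or with the replicate block. Leaving out 1 tumour gave 0 to 8, beside 0.0464% to 46.7% of all genes. The share of all genes is not given here for the filter and centring settings, or for F tests with a covariate or block. In T2215 the counts were 0 under every setting run.

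With the macrophage score, log2 differences turned to -0.065 (C1qa), -0.059 (C1qb), -0.036 (C1qc), -0.074 (Cfb) and -0.12 (C6) against vehicle, and to -0.12, -0.035 and -0.11 for C1qa, C1qb and C1qc against HLX53. With the adipocyte score they turned to -0.13 (C1qb), -0.0096 (C2), -0.77 (Cfd) and -0.30 (C6) against vehicle, and to -0.57, -0.67, -0.58, -0.43, -0.66 and -0.69 for C1qa, C1qb, C1qc, C4b, C2 and C3 against HLX53. The cause was not tested. Of 528 values of single genes under alternatives, 376 kept direction and call, 134 kept direction only and 18 turned.

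Deviations of same-numbered tumours from their group means had a median r of -0.03 in T2106 and -0.04 in T2215. Single pairs ran between -0.68 and 0.62 in T2106 and between -0.74 and 0.72 in T2215. These values cannot show whether tumours were paired. With the replicate number as a block, 9 and 6 complement genes passed against vehicle and HLX53, while calls over all genes were 5758, against 6633 without the block, and 2754, against 4032. Groups of 3 and the unknown depth limit all comparisons.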
